A study of Mus musculus with 4 samples.

Results

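The genes of the major histocompatibility complex (MHC) and of antigen presentation were examined in mouse liver. The set was defined by symbol, as every gene of the deposited table whose name begins with H2-, the prefix of the mouse MHC, together with B2m, Tap1, Tap2, Tapbp, Ciita, Nlrc5, Cd74, Erap1, Psmb8, Psmb9, Psmb10, Psme1 and Psme2. It held 52 of the 24138 genes in the table, 39 with an H2- symbol and 13 with another, and membership rests on the symbol alone, with no threshold on a measured value. Poly(A)-enriched RNA was sequenced in bulk from 4 livers, each labelled as coming from a male C57BL/6J mouse at an age of 18 weeks. All were fed the FAT-MASH diet, a model diet for metabolic dysfunction-associated steatohepatitis (MASH), and given resolvin D1 (RvD1), a lipid mediator of the resolution of inflammation. The 4 livers form 1 group and are numbered as in the labels. Livers without the diet or without RvD1 are not part of the values below, which therefore give levels and their spread between treated animals and show no effect of either.

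MHC class I molecules carry peptides from inside the cell to its surface for inspection by CD8 T cells and are made by nearly all nucleated cells. The peptides are cut by the proteasome, moved into the endoplasmic reticulum by the TAP transporter, trimmed by ERAP1 and loaded with the help of tapasin onto a heavy chain bound to beta-2-microglobulin. Class II molecules present material taken up from outside to CD4 T cells, are assembled with the invariant chain CD74, and are made mainly by dendritic cells, macrophages and B cells, and in liver also by sinusoidal endothelial cells.

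Levels are given in FPKM, fragments scaled to transcript length and to library size, so that genes of different length can be set side by side. Of the 52 genes, 32 reached a mean of 1 FPKM, as did 10541 of all 24138 genes (43.7%), 9 were detected below that level and 11 were listed at 0 in all 4 livers. The means spanned 6 genes at 100 FPKM or more, 17 from 10 to under 100 FPKM and 9 from 1 to under 10 FPKM. On chromosome 17 lay 44 of the genes, between 33919478 and 37483529 (mm10), a stretch of 3.56 Mb that holds the mouse MHC. The other 8 lay elsewhere. The estimated depth was between 18.8 and 20.1 M fragments per library (M, mega), so that a single fragment adds 0.0498 to 0.0531 FPKM to a gene of 1 kb. All 8 hepatocyte markers were abundant in each library, with a summed level from 35346 to 47369 FPKM.

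The sequences shown first are the promoters of the 3 most abundant class I heavy chain genes, since they differ in level and H2-Q10 differs from the others in the letters of its regulatory boxes. They are RefSeq promoters of build GRCm38.p6, from 250 bases before to 50 bases after the annotated start, printed 5′ to 3′ on the strand of the gene. Capitals mark GGGATTCCC (the core of enhancer A, a site for NF-kB), TGACG (the core of the X2 box) and CCAAT (the Y box, bound by NF-Y), each searched on both strands, so that ATTGG and CGTCA are matches as well. The letters of these 3 motifs did not overlap. The windows are chr17:34000298-34000597 on the minus strand for H2-K1, chr17:35262844-35263143 on the plus strand for H2-D1 and chr17:35469839-35470138 on the plus strand for H2-Q10.
H2-K1: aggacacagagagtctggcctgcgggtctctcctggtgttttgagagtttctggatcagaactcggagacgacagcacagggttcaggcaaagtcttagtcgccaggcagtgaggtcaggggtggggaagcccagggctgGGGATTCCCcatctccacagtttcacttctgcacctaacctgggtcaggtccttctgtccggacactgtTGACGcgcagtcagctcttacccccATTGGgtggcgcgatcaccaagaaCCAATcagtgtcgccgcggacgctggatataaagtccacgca
H2-D1: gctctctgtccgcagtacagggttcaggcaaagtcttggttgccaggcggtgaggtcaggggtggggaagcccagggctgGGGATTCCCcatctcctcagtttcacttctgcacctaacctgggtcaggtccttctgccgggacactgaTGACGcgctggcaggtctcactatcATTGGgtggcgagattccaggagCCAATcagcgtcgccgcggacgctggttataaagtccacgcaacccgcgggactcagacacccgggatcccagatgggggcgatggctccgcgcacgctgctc
H2-Q10: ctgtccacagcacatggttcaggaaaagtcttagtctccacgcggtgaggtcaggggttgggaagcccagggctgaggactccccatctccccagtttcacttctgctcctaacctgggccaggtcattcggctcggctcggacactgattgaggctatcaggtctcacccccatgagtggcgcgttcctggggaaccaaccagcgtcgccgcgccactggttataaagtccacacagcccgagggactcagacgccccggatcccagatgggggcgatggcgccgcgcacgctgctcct

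The promoters of H2-K1 and H2-D1 both held all 3 motifs, at -110 and -170 from the start for GGGATTCCC. Their annotated starts lie differently to the letters TATAA of the TATA box, which stood at 36 after the start in H2-K1 and at -26 in H2-D1. Positions from the start are therefore not comparable between these genes. The H2-Q10 window held none of them. In an alignment of the windows, 254 of 291 aligned bases (87.3%) were identical between H2-D1 and H2-Q10, against 211 of 239 (88.3%) between H2-D1 and H2-K1. With H2-D1 as the reference and positions counted from 1 at the first base of the motif, H2-Q10 carried G1A and T5C in the enhancer A core, where its letters are AGGACTCCC. In the TGACG motif it carried G2T, A3G and C4A, and in the CCAAT box at -53 of H2-D1 it carried T5C. In the inverted box, ATTGG at -76 of H2-D1, it had a gap at position 2 and G5A. Among all 32851 promoters of the table, 116 (0.353%) held GGGATTCCC, 20.8% held TGACG and 37.4% held CCAAT. Of the 9 class I heavy chain genes that reached a mean of 1 FPKM and had a promoter in the table, 3 held GGGATTCCC (H2-K1, H2-D1 and H2-Q7), 6 held TGACG and 8, all but H2-Q10, held CCAAT. A match or its absence describes these letters only.

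The most abundant gene of the set was H2-Q10 (XLOC_008847, chromosome 17, 35470089 to 35474563), which encodes a class Ib molecule that is secreted by hepatocytes. It was measured at 2137, 2083, 1882 and 2207 FPKM in livers 1 to 4, a mean of 2077 ± 139 FPKM (SD, n = 4), and ranked 27th of the 24138 genes. All 4 livers lay close together, with a highest value 1.17-fold above the lowest. The classical heavy chains, which present peptides on most cells, were lower in each library. H2-K1 (chromosome 17, 33996012 to 34000333) was at 613, 534, 652 and 679.7 FPKM, with a mean of 619.6 ± 63.3 FPKM (SD, n = 4). H2-D1 (chromosome 17, 35263094 to 35267497) was at 419.9, 454, 366 and 483 FPKM, with a mean of 430.9 ± 50.2 FPKM (SD, n = 4). The ranges of the 3 genes did not overlap, and within each liver H2-Q10 exceeded H2-K1 3.38 ± 0.425-fold (SD, n = 4, range 2.89 to 3.90). H2-K1 exceeded H2-D1 in every liver, by 1.46 ± 0.249-fold (SD, n = 4), with the smallest ratio of 1.17 in liver 2 and the largest of 1.78 in liver 3.

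B2m (chromosome 2), the light chain shared by all class I molecules, was measured at 2306, 2066, 1814 and 2109 FPKM in livers 1 to 4, a mean of 2074 ± 202 FPKM (SD, n = 4). Liver 1 was highest and liver 3 lowest. Its level overlapped that of H2-Q10 and differed from it by less than the spread between animals, with a ratio of H2-Q10 to B2m of 1.00 ± 0.0544 (SD, n = 4). Set against the summed class I heavy chains, B2m came to 0.606 ± 0.0448 (SD, n = 4), and against H2-K1 and H2-D1 alone to 1.98 ± 0.218 (SD, n = 4). The span that the table gives for B2m, 122120108 to 122186189, is 66082 bases long and includes Patl2 and Trim69, whereas RefSeq gives B2m 5396 bases. Both of those genes had at most 0.0985 FPKM in any liver.

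The B2m promoter is shown because it holds the interferon-stimulated response element GAAANNGAA as well as TGACG and CCAAT. It is chr2:122147437-122147736 of GRCm38.p6 on the plus strand, with capitals for GAAANNGAA, TGACG and CCAAT on either strand, which did not overlap.
B2m: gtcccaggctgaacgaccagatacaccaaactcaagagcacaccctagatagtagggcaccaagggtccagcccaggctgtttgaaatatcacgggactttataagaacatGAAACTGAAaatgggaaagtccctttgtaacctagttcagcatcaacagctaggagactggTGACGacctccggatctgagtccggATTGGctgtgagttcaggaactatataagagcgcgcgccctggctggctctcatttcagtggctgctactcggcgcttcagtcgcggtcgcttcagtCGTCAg

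The response element was found at -139 in B2m and also in the windows of Erap1, Psme1, H2-T22 and H2-T23, that is in 5 of the 23 promoters available for genes of the set that reached a mean of 1 FPKM. Of all promoters in the table, 8.56% held it.

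**Figure D1:**
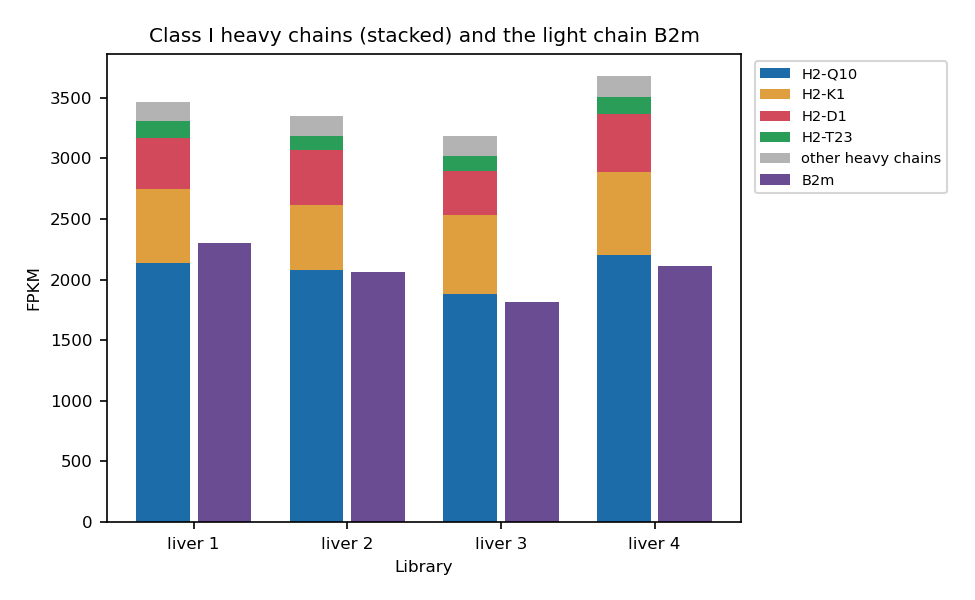
Class I heavy chain transcripts stacked by gene and, beside them, the light chain B2m in each of the 4 livers (y axis, FPKM; x axis, library). H2-Q10 is the tallest segment in every liver, at 59.1% to 62.2% of the summed heavy chains, and is about as high as B2m.

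Summed over the class Ia and class Ib heavy chains, H2-Q10 made up 61.7%, 62.2%, 59.1% and 60.0% of the FPKM in livers 1 to 4. H2-K1 made up 18.1 ± 1.88%, H2-D1 12.6 ± 0.937%, H2-T23 3.71 ± 0.192% and all other heavy chains together 4.82 ± 0.253% (each SD, n = 4). The order of these shares was the same in all 4 livers down to H2-D1.

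The other class Ib genes, which encode less variable heavy chains with more specialised roles, were 1 or more orders of magnitude below H2-Q10. H2-T23 encodes Qa-1, the ligand of the NK cell receptor CD94/NKG2A, and was at 136, 116, 119 and 137 FPKM in livers 1 to 4. H2-T22, a ligand of some gamma delta T cells, was at 52.4, 50.9, 57.0 and 58.1 FPKM. Both were slightly higher in liver 4 than elsewhere, but their values differed by no more than 1.18-fold between livers. H2-Q7 encodes Qa-2, a molecule anchored by a lipid, and was at 37.6, 40.3, 39.9 and 45.1 FPKM. H2-Q4 was at 24.4, 27.3, 24.3 and 28.6 FPKM, and H2-Q1 at 26.6 and 26.8 FPKM in livers 1 and 2 and lower in livers 3 and 4, down to 22.9 FPKM. H2-Q8 was at 8.02, 9.25, 10.2 and 8.25 FPKM. These genes of the Q region thus kept their level within 1.27-fold across animals.

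H2-Q5, H2-Q2, H2-M3 and H2-T10 had means between 1.07 and 2.18 FPKM. H2-M3, which presents formylated bacterial peptides, was at 1.88, 1.82, 2.07 and 1.18 FPKM, lowest in liver 4, as was H2-Q5 at 2.37, 2.59, 2.34 and 1.40 FPKM. H2-Q2 was at 1.75, 2.24, 1.89 and 1.72 FPKM and H2-T10 at 1.13, 0.732, 1.16 and 1.24 FPKM. RefSeq lists H2-Q5 and H2-T10, and also H2-Bl, as transcribed pseudogenes. They were grouped by symbol and so remain in the summed class I heavy chains. Below a mean of 1 FPKM lay H2-Bl (0.488 to 1.68 FPKM), H2-T24 (0.376 to 1.18 FPKM) and H2-M2 (0.298 to 1.31 FPKM). H2-M5 was listed at 0.118 FPKM in liver 1 and at 0 in the others, a value of few fragments. The 10 class Ib genes listed at 0 in every liver were H2-T3, H2-M1, H2-M9, H2-M11 and the H2-M10 genes H2-M10.1 to H2-M10.6.

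Near-identical copies limit how reads can be assigned among class I genes. Windows of 50 bases from the GENCODE transcript of each gene were therefore looked up in the transcripts of all other genes. Of the windows of H2-Q10, 8.03% occurred in another gene, of H2-K1 8.79% and of H2-D1 14.3%. The share was 44.7% for H2-T22 and 42.9% for H2-T10, which share most with each other, 35.4% for H2-Q5, 34.9% for H2-Q7, 28.8% for H2-T23, 24.3% for H2-Q4 and 22.9% for H2-Q1. The levels of these Q and T genes are uncertain by an amount that these shares do not bound, above all for H2-T10, which shares 40.2% of its windows with the far more abundant H2-T22. By contrast B2m, Cd74, H2-Aa, H2-Ab1 and H2-Eb1 shared 0 windows. The span given for H2-Q8 (35424847 to 35428361) lies for 99.9% of its length in the gene that RefSeq names H2-Q6, so its symbol depends on the annotation, and no shared windows were computed for it. The span of H2-T23 (35994504 to 36038174) is also given for H2-T24.

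The remaining H2- symbols were H2-Ke6, which belongs to neither MHC family, and H2-K2, a class I pseudogene that was kept apart from the heavy chains above. H2-Ke6 is another name of Hsd17b8, an enzyme of fatty acid synthesis and steroid metabolism that lies in the locus, and was at 65.9, 61.0, 57.4 and 80.0 FPKM in livers 1 to 4, highest in liver 4. Of its windows, 62.9% occurred in Gm20427, the largest share of the set, so its level carries an uncertainty of assignment. H2-K2, a transcribed pseudogene in RefSeq next to H2-K1, was at 8.70, 7.76, 3.52 and 4.93 FPKM. Livers 1 and 2 lay above livers 3 and 4 and the range was 2.47-fold. Its SD of log2(FPKM + 1) was 0.51, the largest of the set, and above that of 98.6% of all genes that reached a mean of 1 FPKM. Of its windows, 10.9% occurred in another gene.

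**Figure D2:**
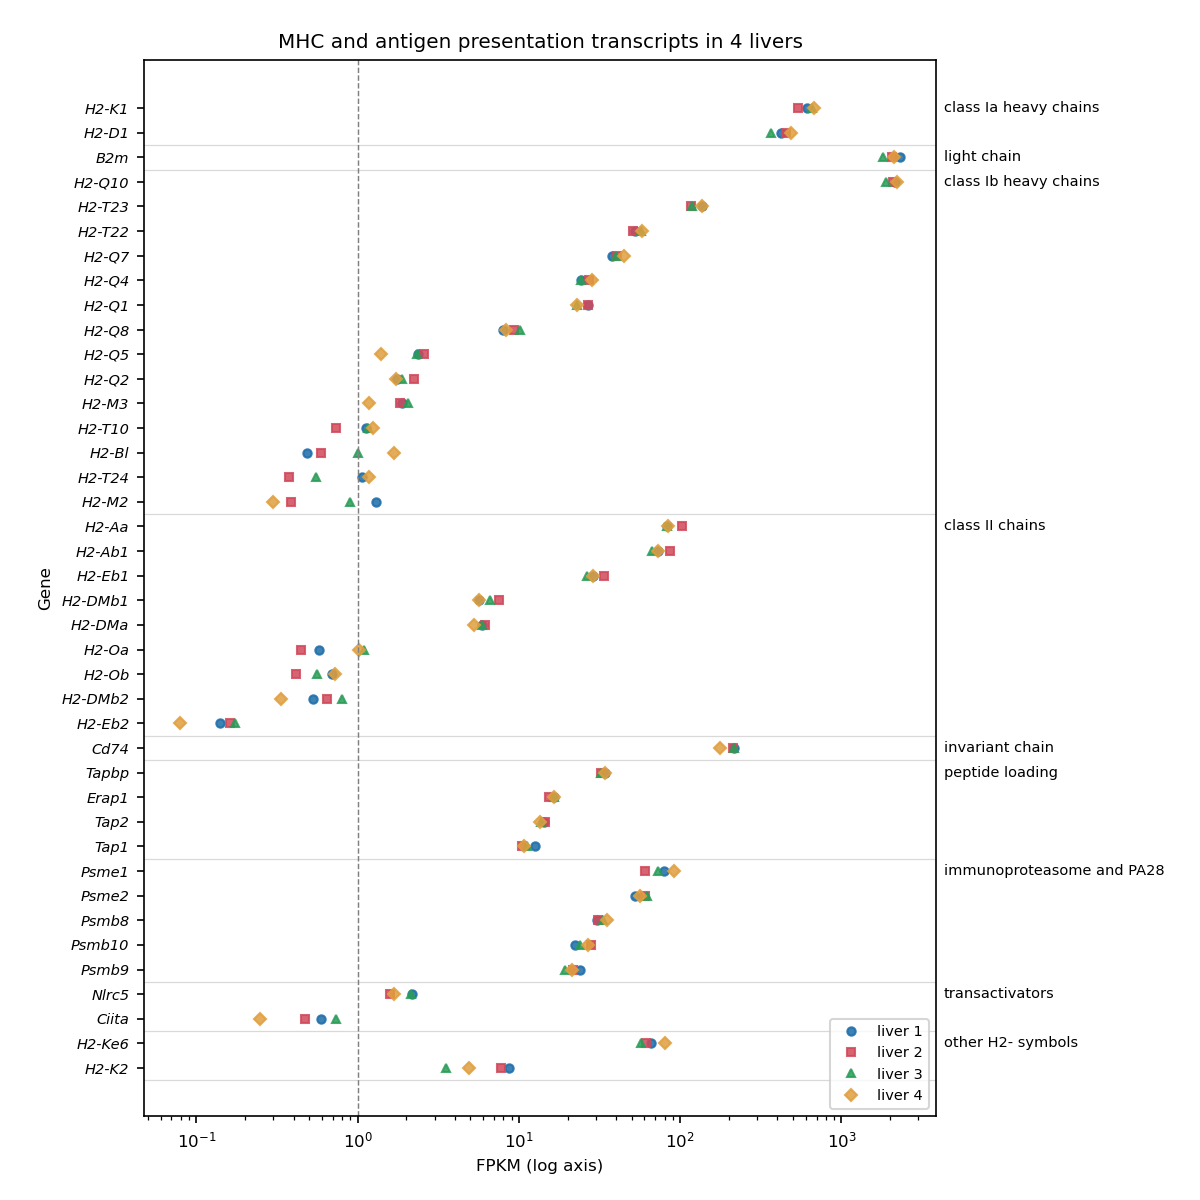
Level in each of the 4 livers (x axis, FPKM on a log axis; points, livers 1 to 4) for the 40 genes listed above 0 in every liver, grouped by role. The dashed line marks 1 FPKM, and H2-Q10 and B2m have the highest means, 2077 and 2074 FPKM.

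Peptides for class I are supplied by the proteasome, and interferon gamma replaces its catalytic subunits with inducible ones. Psmb8 (LMP7) was at 30.4, 31.1, 33.0 and 34.9 FPKM in livers 1 to 4, beside 115, 94.0, 97.7 and 100.3 FPKM of Psmb5, whose place it takes. Psmb9 (LMP2) was at 23.8, 21.5, 19.3 and 21.5 FPKM, beside 95.3, 84.9, 92.2 and 103.7 FPKM of Psmb6. Psmb10 (MECL-1) was at 22.3, 28.0, 23.9 and 26.7 FPKM, beside 117, 102, 103 and 129 FPKM of Psmb7. Every inducible subunit was below its constitutive counterpart in all 4 livers, with no overlap. The ratio within a liver was 0.320 ± 0.0381 for Psmb8 over Psmb5, 0.230 ± 0.0250 for Psmb9 over Psmb6 and 0.226 ± 0.0370 for Psmb10 over Psmb7 (each SD, n = 4). With 4 animals an exact two-sided sign-flip test cannot go below p = 0.125, so no test was run on these ratios. Liver 1 had the lowest ratio for Psmb8 and Psmb10 (0.264 and 0.190), and liver 4 for Psmb9 (0.207).

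**Figure D3:**
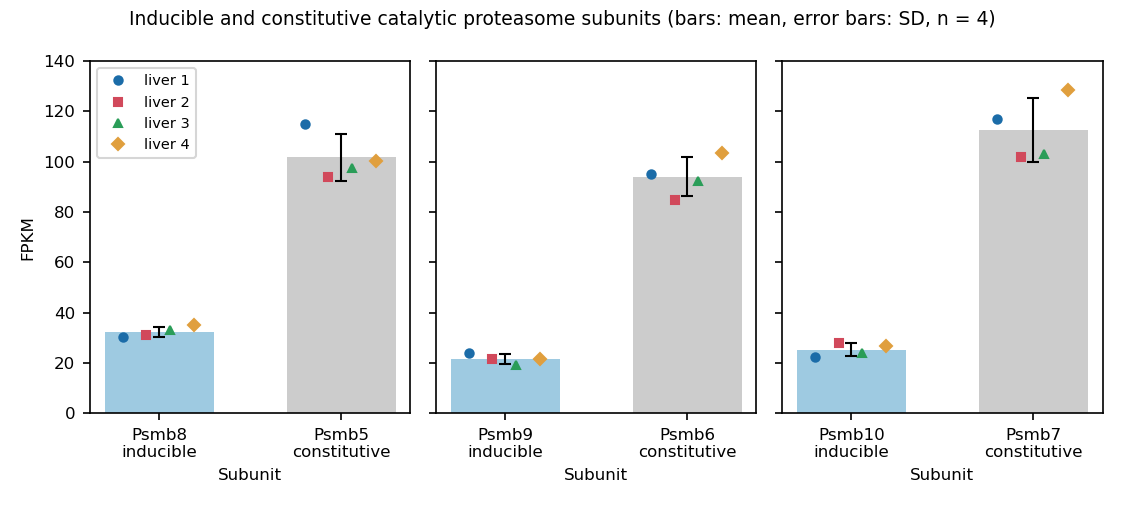
Inducible (blue bars) and constitutive (grey bars) catalytic proteasome subunits (y axis, FPKM; bars, mean of 4 livers; error bars, SD; points, livers). Each inducible subunit lies below its constitutive partner in every liver, with ratios between 0.190 and 0.348.

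The activator PA28 opens the proteasome and is built from the products of Psme1 and Psme2. Psme1 was at 79.8, 60.2, 72.6 and 91.5 FPKM and was among the more variable genes of the set, with an SD of 0.25 on the log2 scale. Psme2 was at 52.7, 60.1, 61.9 and 56.7 FPKM, so that the genes were at the same level in liver 2 (a ratio of 1.00) and apart in liver 4 (1.61). The mean ratio was 1.33 ± 0.287 (SD, n = 4). The row of Psme1 has the same span as Emc9, which was at 20.8 ± 2.65 FPKM (SD, n = 4), and 59.3% of the windows of Psme2 occurred in another gene, mostly Psme2b, so both values carry an uncertainty of assignment.

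Of the genes of peptide transport and loading, Erap1, Tapbp and Tap2 had the smallest spread of the 32 genes that reached a mean of 1 FPKM, while Tap1 varied more. Tapbp, which encodes tapasin, was at 34.0, 32.2, 32.4 and 34.2 FPKM, and Erap1, the trimming aminopeptidase, at 16.5, 15.5, 16.5 and 16.5 FPKM. Tap2 was at 14.4, 14.5, 13.6 and 13.5 FPKM and Tap1 at 12.5, 10.4, 11.2 and 10.7 FPKM. The highest liver exceeded the lowest by 1.06-fold for Tapbp and by 1.07-fold for Erap1 and Tap2. Their SDs on the log2 scale were 0.045, 0.044 and 0.048, at or below the 2.77th percentile of all genes that reached a mean of 1 FPKM. For Tap1 the range was 1.20-fold and the SD 0.11. Tap2 exceeded Tap1 in all 4 livers without overlap, with a ratio of Tap1 to Tap2 of 0.801 ± 0.0652 (SD, n = 4), and Tapbp exceeded Tap2 2.37 ± 0.124-fold (SD, n = 4). Tap1 and Psmb9 are transcribed away from each other from start sites 226 bases apart. Both were highest in liver 1, where their values were 12.5 and 23.8 FPKM, but they parted elsewhere. Tap1 was lowest in liver 2 (10.4 FPKM), where Psmb9 was at 21.5 FPKM. Psmb9 was lowest in liver 3 (19.3 FPKM), where Tap1 was at 11.2 FPKM. Whether these genes vary together was not tested.

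The class II chains with the highest levels were H2-Aa, H2-Ab1 and H2-Eb1. H2-Aa and H2-Ab1 encode the alpha and beta chain of I-A, the class II molecule of the b haplotype that C57BL/6 mice carry. H2-Aa (chromosome 17, 34282751 to 34287771) was at 82.6, 101.8, 83.3 and 83.8 FPKM in livers 1 to 4. H2-Ab1 (chromosome 17, 34263227 to 34269418) was at 72.4, 85.9, 66.8 and 72.4 FPKM. Liver 2 was highest for both, and their ratio varied little, at 1.18 ± 0.0463 (SD, n = 4). H2-Eb1, whose alpha chain partner is not made in this haplotype, was at 28.9, 33.4, 26.3 and 28.8 FPKM. H2-Ab1 exceeded H2-Eb1 by 2.53 ± 0.0308-fold (SD, n = 4), the steadiest of the 16 ratios computed, 7 of which were chosen after the values were seen. The row H2-Ea-ps, the inactive alpha chain gene, was listed at 0 in all 4 livers.

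H2-DMa and H2-DMb1 encode the chaperone that exchanges the invariant chain fragment for peptide. H2-DMa was at 5.93, 6.19, 5.86 and 5.29 FPKM and H2-DMb1 at 5.62, 7.53, 6.62 and 5.62 FPKM. Its near copy H2-DMb2 (27.2% of the windows of H2-DMb1 occur there) was at 0.332 to 0.795 FPKM. H2-Oa (0.444 to 1.09 FPKM) and H2-Ob (0.417 to 0.723 FPKM), which encode the inhibitor of that chaperone and are made mainly in B cells, were near the level of 1 FPKM or below, and H2-Eb2 was at 0.0791 to 0.174 FPKM.

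Promoters of 3 class II genes that reached a mean of 1 FPKM are shown because they hold motifs described here. The promoter of H2-DMa, a gene that also reached that level, held none of them and is not shown. Capitals mark CCAAT and TGACG as above and the X1 motif AACNGNTG, on both strands. In H2-Aa the TGACG matches of the 2 strands overlap in TGACGTCA. The windows are chr17:34287774-34288073 on the minus strand for H2-Aa, chr17:34305617-34305916 on the plus strand for H2-Eb1 and chr17:34152941-34153240 on the plus strand for H2-DMb1, all in GRCm38.p6.
H2-Aa: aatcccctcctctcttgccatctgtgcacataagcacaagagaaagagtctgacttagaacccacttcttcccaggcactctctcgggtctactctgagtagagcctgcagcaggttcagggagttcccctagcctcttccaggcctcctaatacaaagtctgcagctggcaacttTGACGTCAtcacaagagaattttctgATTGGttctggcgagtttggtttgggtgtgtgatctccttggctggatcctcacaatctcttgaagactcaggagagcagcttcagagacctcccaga
H2-Eb1: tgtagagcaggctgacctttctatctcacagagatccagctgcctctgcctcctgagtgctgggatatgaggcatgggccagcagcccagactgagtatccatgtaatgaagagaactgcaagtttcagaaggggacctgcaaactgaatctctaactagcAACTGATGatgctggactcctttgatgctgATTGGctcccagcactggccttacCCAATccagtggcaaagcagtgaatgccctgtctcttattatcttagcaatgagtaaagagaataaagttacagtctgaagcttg
H2-DMb1: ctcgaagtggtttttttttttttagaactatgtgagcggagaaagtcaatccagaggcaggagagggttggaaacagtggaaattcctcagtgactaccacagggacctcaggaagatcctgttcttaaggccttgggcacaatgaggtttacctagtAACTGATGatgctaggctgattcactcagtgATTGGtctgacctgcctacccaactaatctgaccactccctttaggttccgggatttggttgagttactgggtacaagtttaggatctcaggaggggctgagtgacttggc

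The X1 letters stand upstream of an inverted CCAAT box in H2-Eb1, at -89, and in H2-DMb1, at -92. They were found in 10.5% of all promoters and in 2 of the 4 class II genes that reached a mean of 1 FPKM and had a promoter in the table. TGACG was found in 1 of these 4, H2-Aa. CCAAT was present in 3 of the 4, the exception being H2-DMa. Of all 8 class II chains with a promoter, 4 held the X1 letters and 7 held CCAAT. Both were in H2-DMb2 and H2-Eb2, which lay below a mean of 1 FPKM.

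The 5 class II chains that reached a mean of 1 FPKM (H2-Aa, H2-Ab1, H2-Eb1, H2-DMa and H2-DMb1) were all highest in liver 2, both as deposited and after median-ratio scaling of the libraries. Of all 10541 genes at that level, 22% were highest in liver 2. None of the 4 class II chains detected below that level was highest in liver 2. H2-Oa (0.575, 0.444, 1.09 and 1.02 FPKM) and H2-Ob (0.695, 0.417, 0.557 and 0.723 FPKM) were lowest there, and H2-DMb2 and H2-Eb2 were highest in liver 3. Summed over all 10 class II chains, the levels were 197, 237, 192 and 198 FPKM in livers 1 to 4. Liver 2 lay apart, while the other livers were between 192 and 198 FPKM. The median deviation of the 5 chains from their means was 0.21 on the log2 scale in liver 2, against -0.019 for all genes.

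Cd74 (chromosome 18, 60803849 to 60812652), which encodes the invariant chain, did not share that pattern. It was at 217, 211, 216 and 176 FPKM in livers 1 to 4, so that 3 livers were alike and liver 4 was lower. The ratio of Cd74 to the summed H2-Aa, H2-Ab1 and H2-Eb1 was 1.18 and 1.23 in livers 1 and 3, and 0.956 and 0.953 in livers 2 and 4. With class II chains high in liver 2 and Cd74 low in liver 4, the same ratio resulted in both.

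Markers of the cells that carry class II were compared across the same livers. In bulk tissue, a change in the number of cells of a type and a change in RNA per cell cannot be told apart. All 11 macrophage markers were above 0 in each liver, with summed levels of 341, 482, 341 and 462 FPKM in livers 1 to 4, high in livers 2 and 4. The 8 sinusoidal endothelial markers summed to 58.7, 82.1, 67.8 and 74.2 FPKM, also highest in liver 2, where 7 of the 8 had their highest value. Of the markers of other cells, those of stellate cells summed to 307 FPKM in liver 2 against 199 to 243 FPKM elsewhere, and those of neutrophils to 18.6 against 8.39 to 11.6 FPKM. Single genes were highest in liver 2 for 5 of 8 stellate and 3 of 5 neutrophil markers. The T cell sum was also highest in liver 2 (3.57 against 1.95 to 3.06 FPKM), but 3 of its 7 genes were highest in liver 2, 3 in liver 3 and 1 in liver 4, and Lck alone had 1.06 FPKM in liver 2. The cholangiocyte sum (193 to 234 FPKM) was highest in liver 1 through Spp1, without which it was highest in liver 2 and at 19.9, 21.4 and 18.5 FPKM in livers 1, 3 and 4. The NK cell sum (1.45 to 3.58 FPKM) was highest in liver 1, with 2 of 6 genes highest there. The hepatocyte markers were lowest in liver 2, at 35346 FPKM, with 0 of 8 above their mean. The 8 dendritic cell markers summed to between 5.19 and 6.30 FPKM and were highest in liver 1. Of the 8 genes, 5 were highest in liver 1 and 1 in liver 2. Without Itgax the sums were close, at 4.32, 4.48, 4.40 and 3.42 FPKM in livers 1 to 4. Only in this list and that of cholangiocytes did leaving out the most abundant gene change which liver was highest. The 7 B cell markers summed to between 3.84 and 6.00 FPKM and were highest in liver 4. None of these markers was listed at 0 in all 4 livers. The 8 acute phase genes summed to 11511 FPKM in liver 2, against 3028 to 4212 FPKM elsewhere. The part of any of these in the class II values was not tested.

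**Figure D4:**
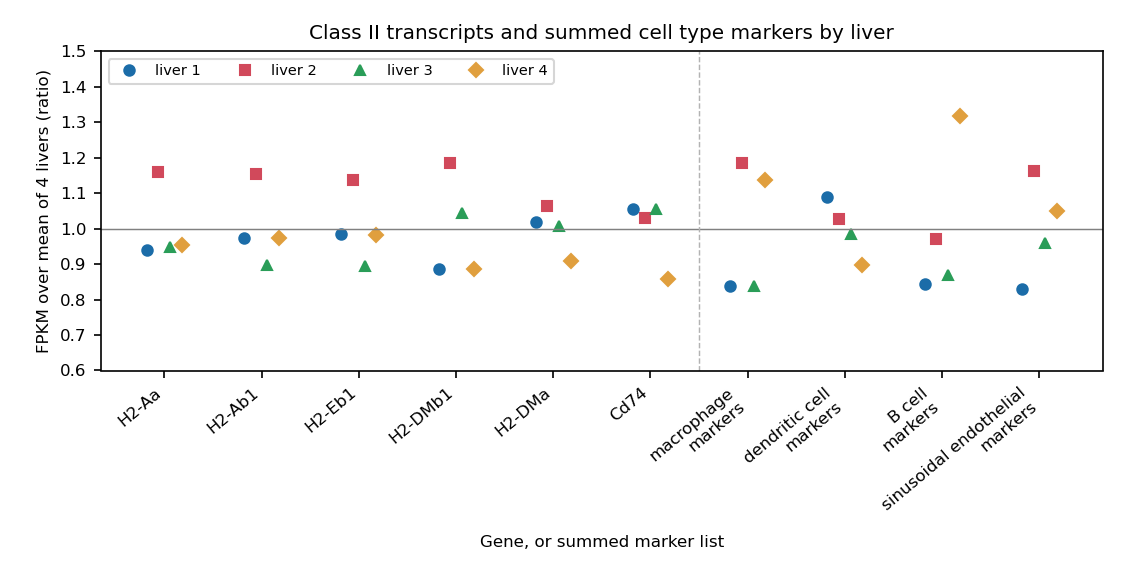
Class II chains, Cd74 and summed cell type markers in each liver, as the ratio to the mean of the 4 livers (y axis; points, livers 1 to 4). Liver 2 is the highest point for all 5 class II chains, and macrophage markers are high in livers 2 and 4.

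The transactivators that switch these genes on, NLRC5 for class I and CIITA for class II, were low as transcripts. Nlrc5 was at 2.18, 1.59, 2.15 and 1.68 FPKM, and Ciita at 0.592, 0.470, 0.735 and 0.248 FPKM in livers 1 to 4. Ciita was lowest in liver 4, in which Cd74 was lowest too. In liver 2, where the 5 class II chains that reached a mean of 1 FPKM were highest, it deviated by only -0.029 on the log2 scale. Its values are low, and a link between Ciita and these genes across livers was not tested. The promoter factors that work with them were all present, 13 of 13 that reached a mean of 1 FPKM, led by Irf2 at 26.5 ± 4.41 FPKM and Rela at 21.2 ± 2.13 FPKM (each SD, n = 4).

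The spread of the set between animals was compared with that of all genes. On the scale of log2(FPKM + 1), the median SD between livers was 0.14 for the 32 genes that reached 1 FPKM on average and 0.16 for all 10541 such genes. The SD was below that overall median in 24 of the 32. With no filter on low values the order of the medians turned, with 0.143 for the set and 0.139 for all genes. A highest value under 1.5 times the lowest was found for 27 of the 32 (84.4%), against 71.6% of all genes. By role, the median SD was 0.046 for peptide loading, 0.12 for immunoproteasome and PA28, 0.12 for class Ib, 0.14 for class II and 0.16 for class Ia. The median deviation of the 32 genes in livers 1 to 4 was 0.024, 0.048, -0.032 and -0.011, beside -0.0094, -0.019, -0.015 and 0.042 for all genes that reached this level. The deviations of the set are not stable, and their sign changed in 4 of 36 alternative computations. The highest value of a gene fell in livers 1 to 4 for 7, 10, 3 and 12 of the 32 genes, where the shares over all genes were 17.9%, 22%, 26.8% and 33.3%. The lowest value fell there for 7, 9, 9 and 7 genes, against 20.7%, 29.9%, 31.4% and 18.1% of all genes. Liver 3 was the highest for few genes of the set. After median-ratio scaling the highest value fell in liver 3 for 6 genes and in liver 4 for 9.

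**Figure D5:**
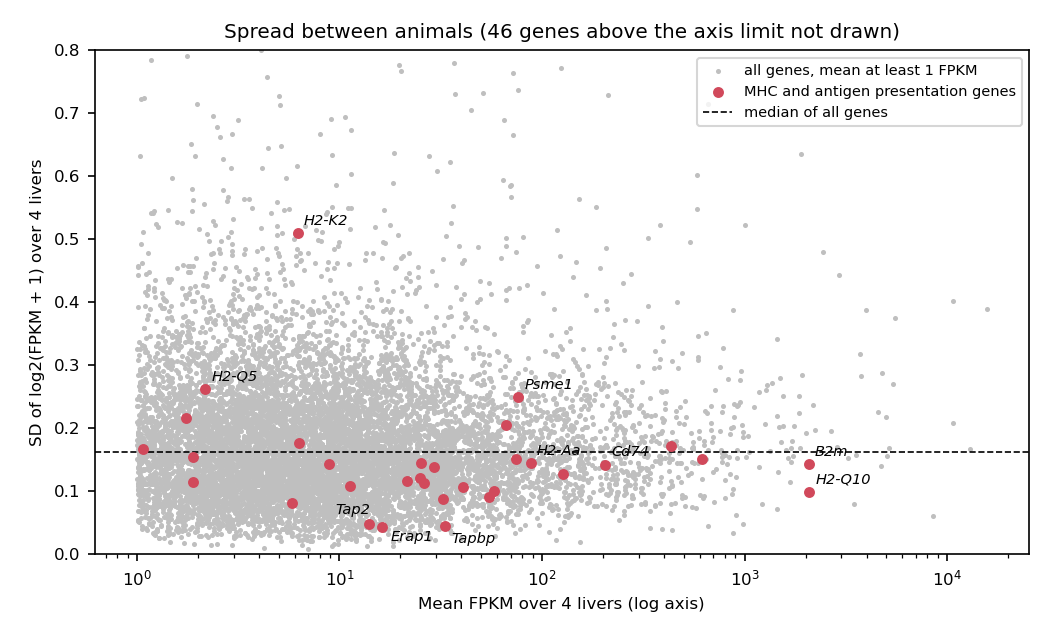
Spread between livers as the SD of log2(FPKM + 1) (y axis) against mean FPKM (x axis, log) for genes reaching 1 FPKM on average (grey; 46 with an SD above 0.8 are not drawn) and the MHC and antigen presentation genes (red). Most red points lie below the dashed median of all genes (0.16), with H2-K2 (0.51) highest.

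Whether a single liver stood apart was judged gene by gene with Dixon's ratio, in which the distance of an outlying liver to the nearest value is divided by the range, at the 95% critical value for 4 samples. It was exceeded by 3 of the 32 genes (9.38%), against 5.64% of all genes. The genes were H2-Aa, high in liver 2, Cd74, low in liver 4, and Erap1, low in liver 2. The share is close to the background, and for Erap1 the lowest and highest liver were 15.5 and 16.5 FPKM. After median-ratio scaling Erap1 was no longer past the critical value and H2-T10 was.

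In the order of means, 13 of the 31 neighbouring pairs of the 32 genes had ranges that did not overlap. H2-Q10 and B2m could not be ordered. Below both of them H2-K1, H2-D1, Cd74, H2-T23 and H2-Aa followed in steps without overlap. From H2-Aa through Psme1, H2-Ab1, H2-Ke6 and Psme2 to H2-T22, and again from Tapbp through Psmb8, H2-Eb1, H2-Q4, Psmb10 and H2-Q1 to Psmb9, each gene overlapped the next.

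Further genes of the pathway were taken from 8 lists with 69 genes in the table, of which 53 reached a mean of 1 FPKM and 3 (5.66%) had a liver past Dixon's critical value, close to the 5.64% found over all genes. These 3 were the promoter factors Nfyb, at 11.3, 11.1, 7.56 and 10.9 FPKM, Rfxank, at 2.50, 2.59, 3.34 and 2.57 FPKM, and Rfxap, at 6.14, 5.92, 5.72 and 8.44 FPKM in livers 1 to 4. Nfyb encodes a subunit of NF-Y, and Rfxank and Rfxap encode subunits of the RFX complex. Of the assembly partners of class I, 9 of 10 were at that level, led by the chaperone Calr at 331 ± 35.2 FPKM and the thiol oxidoreductase Pdia3 at 146 ± 9.18 FPKM (each SD, n = 4). Among cytosolic and endoplasmic reticulum peptidases, 6 of 7 were, led by Lap3 at 123 ± 12.5 FPKM and Nrd1 at 20.6 ± 1.20 FPKM (each SD, n = 4). In the list of class II processing, 8 of 9 were, and the cathepsins Ctsd and Ctsl had 276 ± 15.2 and 275 ± 31.9 FPKM (each SD, n = 4). The 5 constitutive proteasome genes were all at that level, with Psmb7 highest at 113 ± 12.7 FPKM.

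Genes of interferon gamma signalling were unevenly detected. Ifng itself was listed at 0 in all 4 livers. Of the list of 6 genes to which it belongs, 4 reached a mean of 1 FPKM, led by Jak1 at 19.2 to 24.0 FPKM and Ifngr2 at 13.6 to 16.8 FPKM. Among GTPases induced by interferon 7 of 12 did, and Iigp1 was highest at 79.5, 103, 90.3 and 98.6 FPKM in livers 1 to 4, followed by Irgm1 at 14.4 to 18.5 FPKM. Of the costimulatory and checkpoint ligands that accompany antigen to T cells, 1 of 7 reached that level, the adhesion molecule Icam1 at 6.71 ± 0.164 FPKM (SD, n = 4), while Cd86 was at 0.711, 1.08, 0.556 and 1.04 FPKM. The T cell markers, with 7 genes in the table, all had means under 1 FPKM and summed to between 1.95 and 3.57 FPKM.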

How the data were processed

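The deposited table gives 1 value per gene for each of 4 livers, and 0 value columns were left without a sample. Per the submitters' processing notes, the authors used FastQC 0.10.1, Trim Galore 0.6.3 with cutadapt, STAR 2.7.6a and Cufflinks 2.2.1 with build mm10. The header of the deposited table names no unit, and its values were taken as FPKM because of the use of Cufflinks, their form and their sums. The annotation and read length are not given in the sources used here. The sources do not say how the animals were housed or processed, so the SDs measure the spread between these samples. Deposited starts matched those of RefSeq (GRCm38.p6) for 0 of 51 genes of the set as given and for 29 with 1 added, so 1 was added.

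Deviations and SDs were computed on log2(FPKM + 1), which understates differences of low genes, for genes whose mean reached 1 FPKM. A value of 0 from Cufflinks can be a failed estimate and is called listed at 0. Whole fragment counts could not be recovered, and the depth was estimated from low values of 3436 genes with 1 GENCODE vM21 transcript over 800 bases, after subtracting 200 bases. Promoters came from RefSeq, for 39 of the 52 genes, and were aligned with Biopython 1.88. Motifs were searched as short cores, settled after a search with longer forms of the same motifs had been seen. Values were computed with Python 3.11.15, and the procedures were tested on simulated data.

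Genes of the set with a mean of at least 1 FPKM are named with their value in each liver (H2-Q1 with its 2 highest and its lowest) and the others with their range, except Ciita, H2-Oa, H2-Ob and H2-M5, which are given by liver. From each list of related genes the 2 with the highest mean and those past Dixon's critical value are named. The set is defined by symbols alone, but it and the lists were chosen for description with earlier results of these data known. No test compares the set with other genes. The alternatives were other pseudocounts, other minimum levels, median-ratio scaling and leaving out each liver.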

Additional observations from a re-analysis of the deposited data

Results flagged for a closer look

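A liver far from the other 3, by Dixon's ratio at the 95% level, was found for 4 of the 41 genes of the set listed above 0 in any liver, and for 3 of the 32 that reached a mean of 1 FPKM. It was also found for the summed class II chains, for 3 of 53 genes of the pathway lists (5.66%) and for the summed acute phase genes. Among single marker genes, 6 of 8 acute phase genes and 1 of 8 hepatocyte genes were past the critical value. Chance alone marks about 5% of such groups, and 5.64% of all genes were past the value. H2-Aa had a ratio of 0.938, where liver 2 had 101.8 FPKM and the others had 82.6 to 83.8 FPKM. The summed class II chains had a ratio of 0.856 with liver 2 high, in a sum to which H2-Aa contributes most. Cd74 had a ratio of 0.871, where liver 4 had 176 FPKM and the others had 211 to 217 FPKM. Erap1 had a ratio of 0.952 in a range of only 1.07-fold. H2-M5 had a ratio of 1.00 because it was listed above 0 in liver 1 alone, at 0.118 FPKM.

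The 3 genes of the pathway lists, a share close to that of all genes, were all promoter factors. Nfyb (ratio 0.900) had 7.56 FPKM in liver 3, below 10.9 to 11.3 FPKM elsewhere. Rfxank (0.892) had 3.34 FPKM in liver 3, above 2.50 to 2.59 FPKM elsewhere. Rfxap (0.846) had 8.44 FPKM in liver 4, above 5.72 to 6.14 FPKM elsewhere. The summed acute phase genes had a ratio of 0.860, with liver 2 high.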

How the results depend on the processing

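Of 103 alternative values for the 16 results, 92 stayed within the spread of the result or, for the 2 results that are counts, within 1.5 times the count. Within their spread lay all 160 alternative means of the 32 genes. A mean over 4 livers cannot move by as much as the SD between them when 1 liver is left out. For means and ratios with a liver left out, this outcome was thus fixed in advance and shows no stability. The median SD of the set (0.14) was 0.10 with a pseudocount of 5, when that of all genes was 0.11, and 0.13 with a minimum mean of 5 FPKM, when that of all genes was 0.16. With no filter on low values the order turned, with 0.143 for the set and 0.139 for all genes. It was between 0.12 and 0.13 with a liver left out. The median deviation in liver 2 (0.048) was 0.0051 with a minimum mean of 0.1 FPKM and 0.0037 with no filter on low values. In liver 4 it was between -0.035 and 0.029 with another liver left out, and in liver 3 (-0.032) it was 0.0011 with a minimum mean of 0.1 FPKM. The sign changed in 4 of 36 alternatives. Without liver 2 the deviation of liver 1 (0.024) was 0.0022, and without liver 3 that of liver 2 was 0.021, so these deviations are not stable. B2m over class I heavy chains (0.606) became 1.98 when H2-K1 and H2-D1 alone were counted, since all class Ib genes then left the sum. Median-ratio scaling moved the median gene of a library by at most 0.032 on the log2 scale. No paired analysis was possible because all 4 livers belong to 1 group. Dixon's ratio was not computed with a liver left out, since it was applied here only to groups of 4 or more. Depth limits the genes below 1 FPKM.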
